A study of Drosophila melanogaster with 10 samples.

Results

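Odorant-binding proteins are small secreted proteins that carry hydrophobic molecules through the fluid around chemosensory neurons, where the receptors sit in the membrane of the dendrite. In Drosophila melanogaster many of them are made by support cells of olfactory hairs on the antenna or of taste hairs on the mouthparts and legs. Others are made away from sense organs, for example in the fat body, in glia or in the male reproductive tract, and some of these bind lipids. The members described here were chosen by name, as all genes with a symbol of Obp followed by a number whose probe set on the array carries no other gene. There were 35 such genes among 10844 genes with a single symbol, each with 1 probe set, of 51 genes with such a symbol in a current RefSeq gene table of the fly. A further 2 probe sets named an odorant-binding protein gene together with another gene and were not used, and 13 genes of the family, among them Obp83a and the taste gene Obp49a, were not analysed here.

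RNA came from whole adult females of 5 lines selected for heat resistance and of 5 control lines without selection, with 1 array per line. Lines were kept apart per the series' design text, so an SD below describes variation among lines. The sources used here give no age, mating status or treatment before sampling. The authors' values are probe set intensities made with GCRMA, and all levels below are log2(intensity + 1). Median intensities of the 10 arrays ran from 41.9 to 48.4. On fly control transcripts the 3' end was brighter than the 5' end most in line 1 of both groups, by 2.76 in the selected line and 2.27 in the control line on the log2 scale, against 1.43 to 1.93 in the other lines, and some results are also given without line 1 of both groups. Values of different probe sets cannot be set against each other as amounts of RNA, since each probe set has its own brightness. Genes and lists of genes are therefore compared here only with the floor of the array and with themselves across lines. An intensity summed over a list is governed by its brightest probe sets.

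The floor was taken from 23 control probe sets for genes of other organisms, whose means over the 10 arrays ran from 2.28 to 3.43. Of the 35 members, 9 had a mean at or below the top of that range, 21 lay between it and a level of 8, and 5 lay at 8 or more. The 5 bright members were Obp99c, Obp56d, Obp99a, Obp19c and Obp19d. Many of the 21 were only just above the floor. No member had a mean between 4.19 and 5.32, and the 22 members under that gap are called dim below and the 13 above it clear, a division made after the levels were seen. The 13 comprised the 5 bright members with Obp44a, Obp56a, Obp18a, Obp56e, Obp57c, Obp19b, Obp56g and Obp83b. With the highest single value of a control probe set, 3.64, as the floor, 14 members in place of 9 fell below it.

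**Figure D1:**
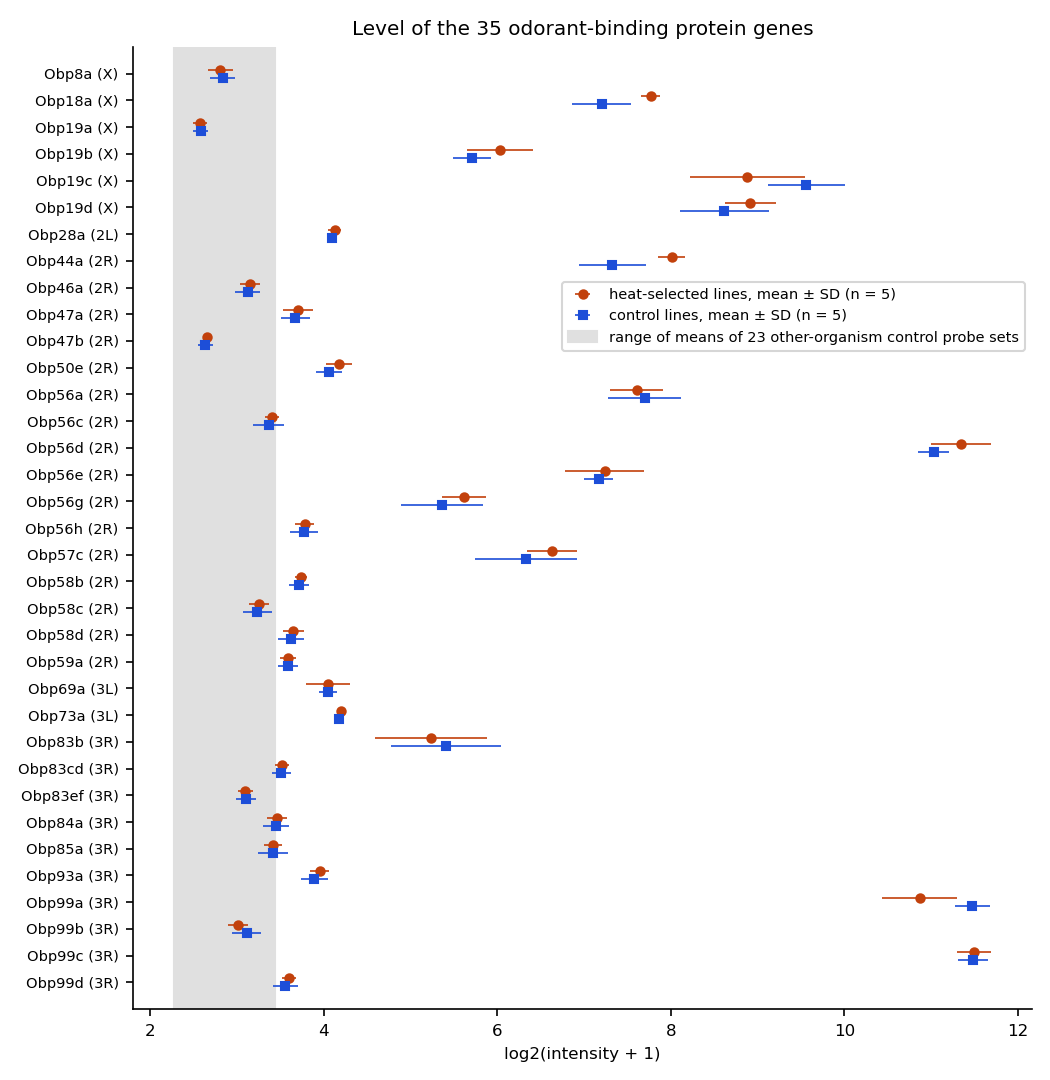
Mean level of each of the 35 odorant-binding protein genes, as log2(intensity + 1) on the horizontal axis, with genes listed by the number in their name and the chromosome arm in brackets. Circles are heat-selected lines and squares control lines (mean ± SD, n = 5 each), and the grey band spans the means of 23 probe sets of other organisms, from 2.28 to 3.43. The 13 clear members stand at 5.32 or more and the other 22 at 4.19 or less.

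Among 7 listed genes of the antenna, 5 were dim and the exceptions were Obp56d and Obp83b. Obp28a, one of the abundant proteins of antennal hairs, averaged 4.12 ± 0.078 in selected lines and 4.10 ± 0.052 in control lines (SD, n = 5 each). Obp69a averaged 4.05 in both groups, Obp84a 3.46 in selected and 3.45 in control lines, and Obp59a, which takes part in humidity sensing, 3.58 in selected and 3.59 in control lines. Obp19a lay at 2.57 in selected and 2.58 in control lines and was too dim to be tested. The gene lush, an antennal odorant-binding protein gene with its own name that serves detection of a male pheromone, lay at 3.23 in both groups, and the odorant co-receptor gene Orco at 2.30 in selected and 2.29 in control lines. These samples were whole flies, and in such RNA fewer cells of a type and less RNA per cell cannot be told apart.

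One member and one other gene bear on the labelled sex of the flies. Obp99b, also known as turn on sex-specificity and made in the fat body of males, was at the floor with 3.01 ± 0.12 in selected and 3.11 ± 0.17 in control lines (SD, n = 5 each). The gene fit, made in the fat body of females, was bright, at 8.45 ± 0.52 in selected and 9.48 ± 0.68 in control lines. Members known from seminal fluid were listed as a sign of material from males: 3 of 7 listed were on the array. Obp8a was at the floor with 2.81 in selected and 2.84 in control lines. Obp56e and Obp56g, which are also made outside the male tract, averaged 7.24 and 5.61 in selected lines and 7.17 and 5.36 in control lines. Of 14 listed accessory gland genes on the array, 9 had a mean above the floor, and the highest mean was 4.29.

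Of the 35 members, 32 were bright enough to be tested, with a log2 level above 3 on at least 5 of the 10 arrays. Obp8a, Obp47b and Obp19a were not. In limma's moderated test, 0 of the 32 passed a Benjamini-Hochberg adjusted p of 0.05 over 10960 features, as did 0% of all features, where the smallest adjusted p was 0.232. Of the tested members 4, or 12.5%, had an unadjusted p below 0.05, against 9.52% of all features and 10.6% of features with a mean above the floor, so the share is near the background. Without line 1 of both groups 7 members did, when 1517 of the 10960 features did in place of 1043. Obp44a and Obp18a had higher means in the selected lines, as did 5.55% of all features at that p, and Obp99a and Obp19c had lower means, as did 3.97%. The median difference over the 32 members, selected minus control, was 0.024, beside 0.0075 over all features. All 4 genes were among the 13 clear members, whose differences ran from -0.68 to 0.68, while the 19 tested dim members lay between -0.10 and 0.11.

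**Figure D2:**
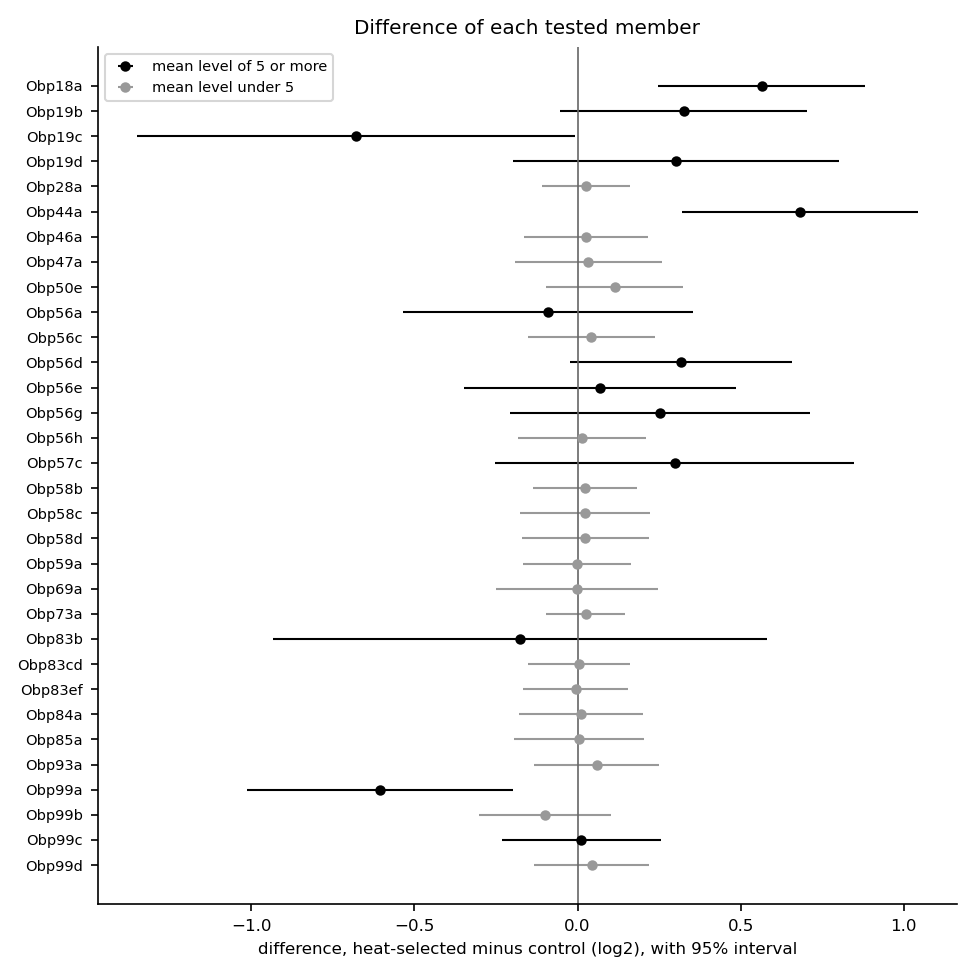
Difference of each of the 32 tested members, heat-selected minus control, on the log2 scale with its 95% interval from limma (5 lines each). Black points are members with a mean level of 5 or more and grey points those under 5, which lie between -0.10 and 0.11. The intervals of Obp18a, Obp44a, Obp99a and Obp19c leave out 0, before adjustment over all features.

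Obp44a (probe set 146792_at, arm 2R) encodes a fatty acid-binding member that is made in astrocyte-like glia of the brain among other places. Its level was 7.92, 8.03, 8.27, 7.93 and 7.89 in selected lines 1 to 5, against 7.81, 7.01, 6.93, 7.23 and 7.65 in control lines 1 to 5. Every selected line lay above every control line, by a margin of 7.89 against 7.81 at the closest, and the groups of 1.59% of all features and of 1.76% of features above the floor were separate in this way. Control lines 2, 3 and 4 were low, while control lines 1 and 5 came close to the selected lines. The selected mean was 1.60-fold the control mean (log2 difference 0.68 ± 0.16, SE), with an adjusted p of 0.240 from limma, the rank by p being 67 among 10960 features. Without line 1 of both groups the difference was 0.82 (limma adjusted p = 0.0989). Over the alternative settings the adjusted p ran from 0.0672 to 0.550.

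Obp18a (145346_at, arm X) had a similar profile across lines. It stood at 7.88, 7.84, 7.81, 7.68 and 7.62 in selected lines 1 to 5, against 7.69, 6.98, 6.84, 7.10 and 7.41 in control lines 1 to 5. The groups overlapped through control line 1, which lay above selected lines 4 and 5. The difference was 0.56 ± 0.14 (SE), or 1.48-fold, with an adjusted p of 0.245 from limma (0.0614 to 0.554 over the alternatives). Without line 1 of both groups it was 0.66 (limma adjusted p = 0.0989), and the groups were separate, which fewer lines reach more easily. The spread between selected lines was small for both genes, with an SD of 0.16 for Obp44a and 0.11 for Obp18a, beside 0.39 and 0.34 between control lines.

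Across the 10 lines Obp44a and Obp18a had a Pearson r of 0.97 and a Spearman rho of 0.87. The r was 0.91 without control lines 2 and 3, and 0.92 after each group's mean was taken off. This gene pair, the relation of Obp44a to muscle markers and that of Obp83b to Os-C were picked because their profiles looked alike, so their coefficients are descriptions with no test. Of 4 listed muscle genes, 3 were on the array, Tm2, sls and Act79B. Their mean level was 8.47 to 8.97 in selected lines and 7.45 to 8.30 in control lines, lowest in control lines 2 and 3. The r of this mean with Obp44a was 0.95 and its rho 0.96, and the r was 0.88 without control lines 2 and 3. The summed intensity of the 3 muscle genes ran from 1606 to 2458 in selected lines and from 869 to 1622 in control lines. All 3 had higher means in the selected lines at an unadjusted p under 0.05, beside 5.55% of all features, and 0 passed over all features. Among listed glial genes on the array the selected mean was higher for 5 of 5, beside 53.7% of all features, with a median of 0.070. Of the 5, 0 had an unadjusted p under 0.05 in limma, beside 9.52% of all features. The largest difference was in the glutamine synthetase gene Gs2 (0.32 ± 0.22, SE, limma adjusted p = 0.798). That count of 0 did not hold without line 1 of both groups. There Gs2 differed by 0.59 and the astrocyte gene alrm by 0.22 (limma, unadjusted p = 0.00893 and 0.0200, adjusted p = 0.166 and 0.232). In that setting 1517 of the 10960 features had an unadjusted p under 0.05, in place of 1043. The summed intensity of the glial list was 427 to 939 in selected and 464 to 676 in control lines. This sum mostly follows Gs2, whose mean level was 8.99, while the other glial genes lay between 3.51 and 4.84. The part of these tissues in the levels of Obp44a and Obp18a was not tested.

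Obp99a (150831_at, arm 3R) belongs with Obp44a to the minus-C branch of the family, which has lost a pair of the conserved cysteines. It is a bright probe set, at 11.36, 10.40, 10.50, 10.82 and 11.26 in selected lines 1 to 5, against 11.63, 11.39, 11.16, 11.62 and 11.58 in control lines 1 to 5. Selected lines 2, 3 and 4 lay below every control line, and selected lines 1 and 5 lay within the control range. All 5 selected lines were below the control median. The selected mean was 1.52-fold lower (log2 difference -0.61 ± 0.19, SE, adjusted p = 0.326 from limma, 0.137 to 0.650 over the alternatives). With 1 line left out the difference ran from -0.73 to -0.49.

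Obp19c (145426_at, arm X) was the most variable of the bright members, at 9.77, 8.88, 8.29, 8.20 and 9.27 in selected lines 1 to 5, against 10.16, 9.71, 9.39, 9.62 and 8.94 in control lines 1 to 5. As for Obp99a, selected lines 2, 3 and 4 were below every control line and lines 1 and 5 were not. The difference was -0.68 ± 0.31 (SE, 1.60-fold lower, adjusted p = 0.514 from limma, 0.216 to 0.818 over the alternatives). With 1 line left out it ran from -0.90 without selected line 1 to -0.51 without selected line 4, and its unadjusted p from 0.00661 to 0.122.

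Among 7 fat body genes the selected mean was lower for 6, with a median difference of -0.057. Of these, 2 were lower at an unadjusted p under 0.05, and 0 passed over all features. Beside this, 53.7% of all features had a higher selected mean and 3.97% were lower at that p. The storage protein gene Lsp2 differed by -3.49 ± 0.55 and fit by -1.04 ± 0.33 (SE, adjusted p = 0.232 and 0.344 from limma), while the other 5 lay between -0.24 for apolpp and 0.13 for Fbp1. The mean level of the 7 was 7.31 to 8.16 in selected lines and 8.16 to 8.67 in control lines, and their summed intensity 4709 to 8584 in selected and 6943 to 8468 in control lines. Among 10 ovary genes 9 had a lower selected mean, with a median of -0.31. The list held germline, eggshell and yolk protein genes, which did not move alike. The germline genes osk, bam and vas differed by -0.0038, 0.0051 and -0.18. The eggshell genes Cp15, Cp16, Cp19 and Cp36 differed by -0.46, -0.94, -0.92 and -0.47. Of the 10, 7 were lower at an unadjusted p under 0.05, beside 3.97% of all features, and 0 passed over all features. Their mean level was 11.80 to 12.30 in selected lines and 12.32 to 12.56 in control lines. Their summed intensity was 69682 to 101549 in selected lines and 95043 to 112686 in control lines. In selected lines 1 to 5 the mean level was 8.16, 7.94, 7.70, 7.31 and 7.73 over the fat body genes and 12.08, 12.17, 11.80, 12.08 and 12.30 over the ovary genes. Obp19c and the fat body mean were both highest in selected line 1 and lowest in selected line 4. The ovary mean was highest in selected line 5 and lowest in selected line 3. Obp99a was highest in selected line 1 and lowest in selected line 2. In control lines the fat body mean was highest in line 2 (8.67) and lowest in line 5 (8.16), and the ovary mean highest in line 4 and lowest in line 1. Obp19c was highest in control line 1 and lowest in control line 5, and Obp99a highest in control line 1 and lowest in control line 3. The part of either tissue in Obp99a and Obp19c was not tested.

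**Figure D3:**
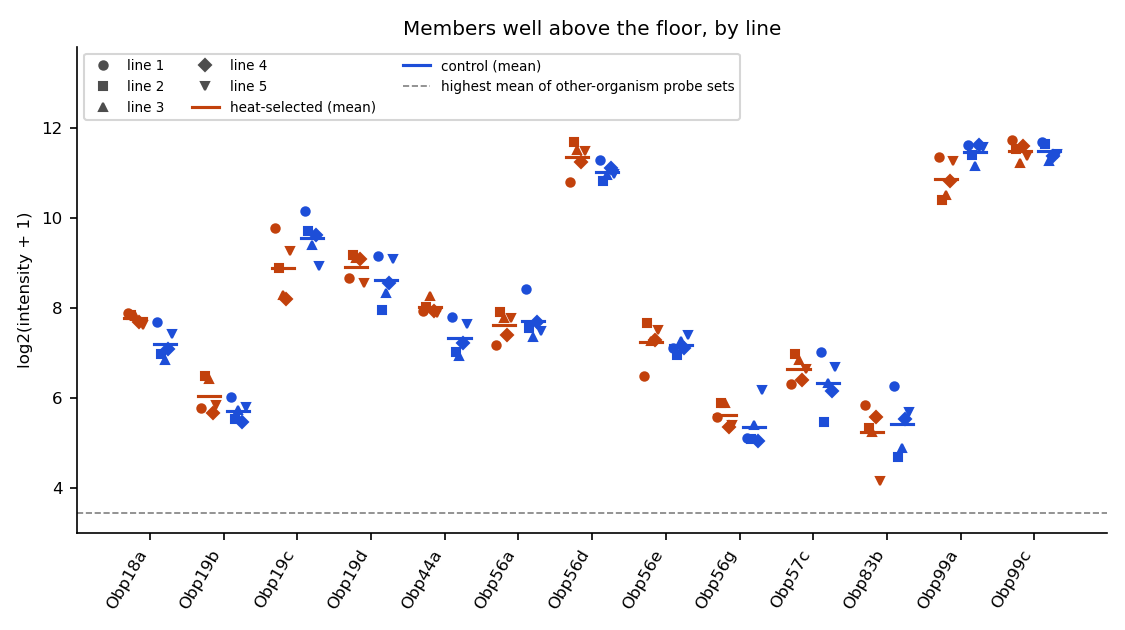
Level of the 13 clear members in every line, as log2(intensity + 1), with heat-selected lines to the left and control lines to the right for each gene. Symbols mark the line number, short bars the group mean (n = 5) and the dashed line the highest mean of probe sets of other organisms, 3.43. For Obp44a all selected lines are above all control lines, and for Obp99a and Obp19c selected lines 2, 3 and 4 are below all control lines.

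For the remaining clear members, the 95% intervals with all lines in ran from negative to positive values. For Obp19d, Obp57c, Obp19b, Obp56g and Obp83b the interval extended beyond the 0.68 of Obp44a in size. A difference as large as that was therefore not excluded for them. The intervals of Obp99c, Obp56d, Obp56a and Obp56e stayed under that size. Obp99c, another bright member of the Obp99 group, stood between 11.23 and 11.73 in selected lines and between 11.28 and 11.69 in control lines. Its difference was 0.012 with a 95% interval of -0.23 to 0.25, and under quantile normalization the sign turned (-0.0076). Obp56d, found in antennae and taste organs, was at 10.80, 11.70, 11.50, 11.24 and 11.49 in selected lines 1 to 5, against 11.30, 10.82, 10.94, 11.10 and 10.98 in control lines 1 to 5. Line 1 ran opposite to the other lines, lowest among the selected and highest among the control lines. The difference was 0.32 ± 0.15 (SE, adjusted p = 0.569 from limma). Without line 1 of both groups it was 0.52 (limma adjusted p = 0.0989) with separate groups, which fewer lines reach more easily. Obp19d, found in olfactory and taste organs, was at 9.18, 9.11 and 9.10 in selected lines 2 to 4, 8.66 and 8.55 in selected lines 1 and 5, and between 7.95 and 9.16 in control lines. Its difference was 0.30 with an interval of -0.20 to 0.80, and 0.50 without line 1 of both groups.

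The other clear members, among them Obp57c, Obp19b and Obp56g of taste organs, had wide intervals, and their groups overlapped. Obp57c was at 6.30 to 6.98 in selected lines and at 5.47 to 7.02 in control lines, lowest in control line 2 and highest in control line 1. Its difference was 0.30 (95% interval -0.25 to 0.85), 0.082 without control line 2 and 0.55 without line 1 of both groups (limma, unadjusted p = 0.0475, adjusted p = 0.354). Obp19b was at 5.67 to 6.48 in selected lines and 5.47 to 6.01 in control lines, and only selected lines 2 and 3 exceeded the control range. Its difference was 0.33 (interval -0.052 to 0.70), and 0.46 without line 1 of both groups (limma, unadjusted p = 0.0339, adjusted p = 0.305). Obp56g was at 5.35 to 5.88 in selected lines and at 5.04 to 5.41 in control lines 1 to 4, with 6.17 in control line 5. Its difference was 0.25 (interval -0.21 to 0.71), and 0.45 without control line 5. Obp56a was at 7.18 to 7.91 in selected lines and 7.35 to 8.42 in control lines, with a difference of -0.090 (interval -0.53 to 0.35) that became 0.090 without control line 1 and 0.20 without line 1 of both groups. Obp56e was at 6.48 in selected line 1, at 7.26 to 7.66 in the other selected lines and at 6.96 to 7.40 in control lines, with a difference of 0.069 (interval -0.35 to 0.49) that became 0.26 without selected line 1 and 0.25 without line 1 of both groups.

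Obp83b, also known as OS-E and made in olfactory hairs of the antenna, had the widest spread between lines of all 35 members. It was at 5.85, 5.34, 5.24, 5.58 and 4.16 in selected lines 1 to 5, against 6.27, 4.69, 4.89, 5.52 and 5.69 in control lines 1 to 5. Selected line 5 was lowest and control line 1 highest, and the groups overlapped over nearly the whole range. The difference was -0.18 with an interval of -0.93 to 0.58, and it became 0.036 without control line 1 and 0.092 without selected line 5. Os-C, another gene of the antenna outside the family, was at 5.32, 4.29, 4.30, 4.48 and 3.72 in selected lines 1 to 5, against 5.83, 3.77, 4.31, 4.27 and 4.43 in control lines 1 to 5. Both genes were highest in line 1 of each group, and lowest in selected line 5 of all selected lines. The r of Os-C with Obp83b over the 10 lines was 0.87, with a rho of 0.87, and the r was 0.78 without control line 1 and selected line 5. The antennal genes lush and Orco, at the floor, were lowest in control line 1. Line 1 of both groups also had the highest 3' excess, and its part in these levels was not tested.

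All 13 clear members had a spread between lines above the median of features above the floor. Their SD within groups ran from 0.19 for Obp99c to 0.64 for Obp83b with a median of 0.34, where the median over 9763 features above the floor was 0.16. The median was also 0.16 over the 3292 features at a level of 8 or more, and all 5 bright members exceeded it. The dim members had an SD of 0.042 to 0.19.

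The median of the dim members followed the floor of the arrays. Obp73a, Obp50e, Obp28a, Obp69a, Obp93a, Obp56h, Obp58b, Obp47a, Obp58d, Obp59a, Obp99d, Obp83cd and Obp84a had means of 3.45 to 4.19, just above the floor. Obp85a, Obp56c, Obp58c, Obp46a, Obp83ef, Obp99b, Obp8a, Obp47b and Obp19a had means of 2.58 to 3.41, within the range of the floor. The median of the 22 was 3.44, 3.52, 3.55, 3.67 and 3.57 in selected lines 1 to 5 and 3.36, 3.66, 3.63, 3.50 and 3.54 in control lines 1 to 5. The median of the 23 probe sets of other organisms was 2.76, 2.84, 2.87, 2.98 and 2.90 in selected lines and 2.65, 2.98, 2.95, 2.84 and 2.88 in control lines. Both series were lowest in control line 1 and highest in selected line 4, with control line 2 next to it. They correlated at an r of 0.995 and a rho of 0.988, with an r of 0.997 without selected line 4 and control line 1. The dim members were set apart by their low level after the levels were seen, so these coefficients are descriptions with no test. Control line 1 was the lowest of the 10 arrays for 17 of 22 dim members and for 23 of 23 control probe sets. Obp99b and Obp8a went the other way, highest in control line 1 at 3.39 and 3.07, and selected line 1 was the highest of the selected lines for both, at 3.16 and 3.06. In the comparison of groups, the selected mean was higher for 24 of the 32 tested members, beside 53.7% of all features and 50.6% of those above the floor. That count was 15 without control line 1, 15 without selected line 4, 15 with quantile normalization and 9 with median centring, so its direction depended on those lines and on the normalization. The median difference over all features moved as well, from 0.0075 to -0.027, -0.018, -0.0096 and -0.060 in the same order of settings.

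**Figure D4:**
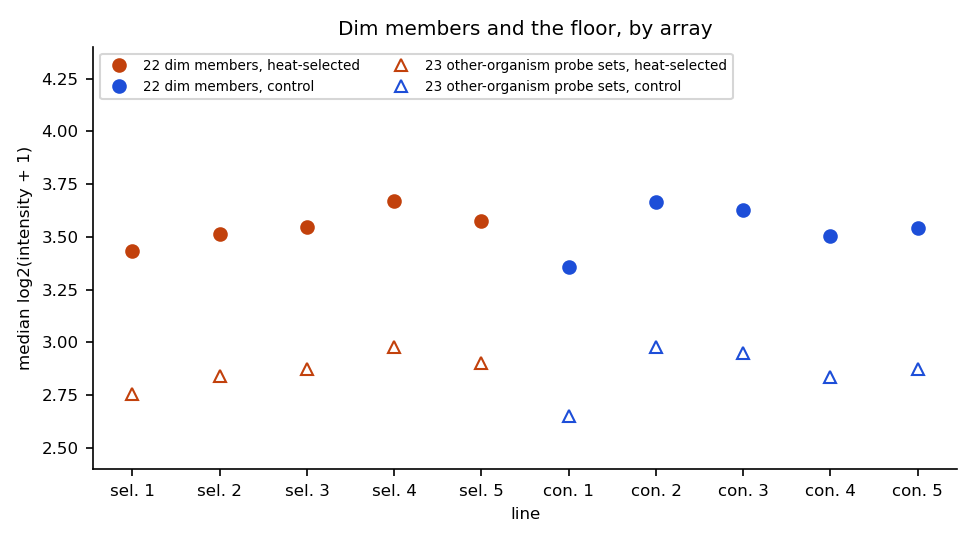
Median log2(intensity + 1) on each array of the 22 dim members (filled circles) and of 23 control probe sets of other organisms (open triangles), for heat-selected lines on the left and control lines on the right. Both medians are lowest in control line 1 (3.36 and 2.65) and highest in selected line 4 (3.67 and 2.98).

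Branches of the family were also compared by count. Among 6 minus-C genes on the array, which are Obp8a, Obp44a, Obp99a, Obp99b, Obp99c and Obp99d, 5 were tested: 3 had a higher and 2 a lower mean in the selected lines, with a median of 0.012. The 2 at an unadjusted p under 0.05, beside 9.52% of all features, differed in opposite directions, Obp44a by 0.68 and Obp99a by -0.61. Among 8 plus-C genes, which carry extra cysteines, the highest mean level was 4.12, in Obp50e, and all 7 tested ones lay between 0.0036 and 0.11.

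Many members stand in tandem groups that share the number in their name, so neighbours on the chromosome were compared within each array. There were 10 pairs of members above the floor that share that number and have no other such member between them. The log2 difference between the neighbours has no meaning as an amount, but its change between groups shows unequal change. For Obp99a and Obp99c, with 5 other genes between them, it was -0.63 ± 0.39 in selected lines and -0.0079 ± 0.20 in control lines (SD, n = 5 each, exact two-sided permutation p = 0.0159, adjusted p = 0.0794 over the 10 pairs). For Obp56a and Obp56d it was -3.74 ± 0.078 in selected lines and -3.33 ± 0.28 in control lines, with all selected lines below all control lines (exact permutation p = 0.00794, the smallest that 5 lines against 5 allow, adjusted p = 0.0794). For Obp19c and Obp19d, which are direct neighbours, it was -0.034 ± 0.91 in selected and 0.95 ± 0.69 in control lines (exact permutation p = 0.0794, adjusted p = 0.198). The other 7 pairs had adjusted p of 0.198 or more, so none of the 10 passed.

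**Figure D5:**
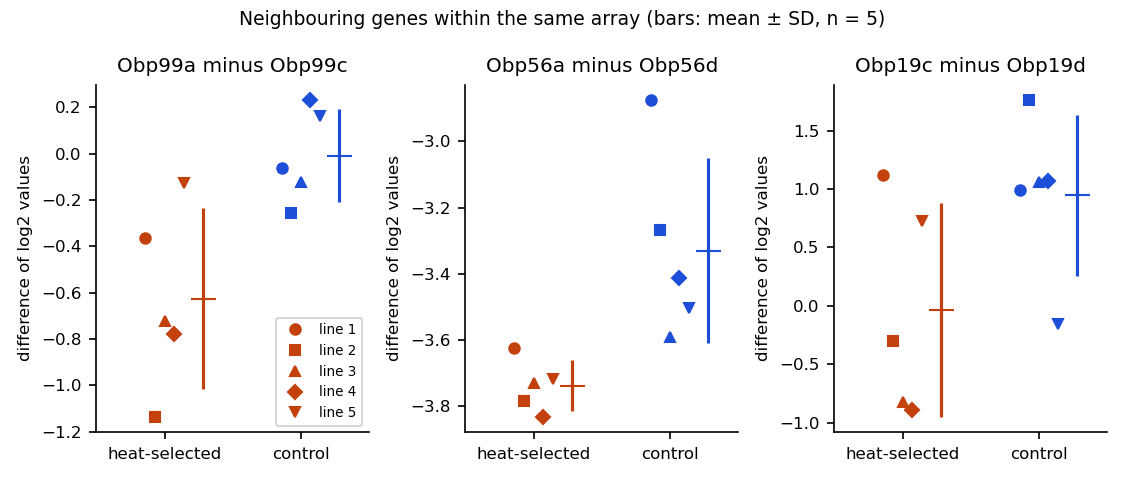
Difference of log2 values between neighbouring members within each array, for Obp99a minus Obp99c, Obp56a minus Obp56d and Obp19c minus Obp19d. Symbols mark the line number and bars the mean ± SD (n = 5 each), with heat-selected lines left of control lines. For Obp56a minus Obp56d all selected lines lie below all control lines, and the other panels overlap.

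Levels of neighbours across the 10 lines were related in few pairs. Obp56a and Obp56d had an r of 0.62 (permutation p = 0.0497, adjusted p = 0.124) and a rho of 0.81 (permutation p = 0.00733, adjusted p = 0.0367), with an r of 0.79 without selected line 1 and control line 1 and of 0.83 after each group's mean was taken off. Obp56d and Obp56e, direct neighbours, had an r of 0.72 (permutation p = 0.0126, adjusted p = 0.0630) and a rho of 0.66 (adjusted p = 0.145), and the r was 0.48 without selected lines 1 and 2. The dim members Obp58b and Obp58d had an r of 0.94 (permutation p = 2.40e-04, adjusted p = 0.00240) and a rho of 0.87 (adjusted p = 0.0225), beside the movement of all dim members with the floor. Obp99a and Obp99c had an r of 0.26 (adjusted p = 0.503) and Obp19c and Obp19d an r of -0.47 (adjusted p = 0.337). Obp83b and Obp83cd, with 6 genes between them, had an r of -0.64 (adjusted p = 0.124), and the other pairs had adjusted p of 0.422 or more for r.

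Receptor genes, which act next to the binding proteins, were close to the floor. Of 52 odorant receptor genes on the array, 11 had a mean above it, and the highest was 4.06. Of 43 ionotropic receptor genes 16 did, with a highest mean of 5.01, and of 28 gustatory receptor genes 8 did. In these 3 lists 30, 32 and 17 genes were tested, and the medians were 0.013, 0.023 and 0.015. In limma 0 of them reached an unadjusted p of 0.05, beside 9.52% of all features. Of 13 genes of the olfactory pathway, 9 were tested and 0 reached that p, beside the same 9.52%. Its member with the highest mean was Snmp2, at 5.08 ± 0.072 in selected and 5.01 ± 0.20 in control lines (SD, n = 5 each), and its smallest p belonged to ATP8B (0.17 ± 0.10, SE, limma adjusted p = 0.738). Among 12 genes of other soluble chemosensory proteins, 10 were tested, with a higher selected mean for 8, beside 53.7% of all features. An unadjusted p under 0.05 was reached by 3, all higher, beside 5.55% of all features, and 0 passed over all features. These were CheA7a (0.49 ± 0.16), CheA87a (0.33 ± 0.14) and CheB38c (0.41 ± 0.18, SE), of families expressed in taste hairs (limma adjusted p of 0.356, 0.495 and 0.503). CheB38c lay close to the floor, with a control mean of 3.41. It was at 3.46, 4.41, 3.95, 3.73 and 3.57 in selected lines 1 to 5 and at 3.14 to 3.63 in control lines. CheA7a was at 5.88 to 6.52 in selected lines, against 6.10, 5.43, 5.32, 5.43 and 5.85 in control lines 1 to 5, low in control lines 2, 3 and 4 as Obp44a and Obp18a were.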

How the data were processed

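The authors deposited 1 intensity per probe set and array, made with GCRMA per the submitters' processing notes, with no version given there. The scale is linear, as read from the values. GCRMA draws weak signals together, and the log2(intensity + 1) scale used here does so too, which understates differences of dim genes. Genes were named through a platform annotation and a RefSeq gene table (Release 6), which also gave arms and gene order. With the brightest probe set kept per gene, features with a log2 level above 3 on at least 5 of 10 arrays were tested, 10960 in all from 14010 probe sets, of which 44 were controls. The test was limma 3.58.1 (R 4.3.3; lmFit, eBayes, two-sided), checked on simulated data, and p-values were adjusted by the Benjamini-Hochberg method across the tested features, with 0.05 as the limit. Gene lists were described by counts and medians. Correlations used 100000 permutations, and neighbour differences all 252 labelings of the lines. The labels do not pair same-numbered lines, so no block was used. Values per line are given for members above the floor among the 12 with the highest mean, the 6 with the smallest p or the 6 with the largest SD. Members, lists and tests were chosen with earlier results of these data known. Alternatives varied the pseudocount, normalization, filter, variance prior, block and lines. The number of arrays limits the precision.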

Additional observations from a re-analysis of the deposited data

How the results depend on the processing

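No member passed the adjusted threshold in limma under any of the alternatives run. Obp44a, Obp18a, Obp99a, Obp19c, Obp56d, Obp19b, Obp19d, Obp57c and Obp56g kept their direction in all of them. The count of members with a higher mean in the selected lines was 24, and 15 with quantile normalization, 9 with median centring and 15 to 27 with 1 line left out, the lowest without control line 1 or selected line 4. Over all features the median difference was -0.0096 with quantile normalization, -0.060 with median centring, -0.027 without control line 1 and -0.018 without selected line 4. The count at an unadjusted p under 0.05 was 4, 3 to 6 with 1 line left out and 7 without line 1 of both groups, which added Obp56d, Obp19b and Obp57c. Over all 10960 features that count moved as well. It was 1043, 731 to 1352 with 1 line left out and 1517 without line 1 of both groups. Groups were separate for 1 member, for 1 or 2 with 1 line left out and for 3 without line 1 of both groups. Fewer lines separate more easily, and the share of all features that did so with lines left out is not given here. With the floor at the highest single control value, 14 members were near it in place of 9. Signs turned for Obp99c (-0.0076 with quantile normalization, -0.056 with median centring, -0.046 to 0.079 with 1 line left out), Obp28a (-0.011 with quantile normalization, -0.041 with median centring), Obp56a (0.20 without line 1 of both groups, -0.18 to 0.090 with 1 line left out), Snmp2 (-0.0022 with quantile normalization, -0.0052 with median centring) and Os-C (0.0070 without line 1 of both groups). With 1 line left out they also turned for Obp56e (-0.037 to 0.26), Obp83b (-0.36 to 0.092), Os-C (-0.32 to 0.23) and lush (-0.066 to 0.033). The causes were not tested. Deviations of same-numbered lines correlated at 0.55, 0.21, 0.20, 0.35 and 0.027 for lines 1 to 5. Lines with different numbers were not compared in this way, so these values have no reference. The labels do not say that same-numbered lines are pairs. With line number as a replicate block, 4 members had an unadjusted p under 0.05 and 0 an adjusted one, Obp44a had an adjusted p of 0.187, and 1467 features in place of 1043 had an unadjusted p under 0.05, 2 of them an adjusted one. Differences near the floor may have gone undetected at this signal, and the size that could be detected there was not measured.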

Other observations

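The probe sets that name an odorant-binding protein gene with another gene gave no sign of a difference beyond the spread between lines. The one for Obp50b and Obp50c averaged 3.29 in selected lines and 3.27 in control lines, at the floor. The one for Obp57d and the cuticle protein gene Cpr57A averaged 4.80 ± 0.16 in selected lines and 4.69 ± 0.066 in control lines (SD, n = 5 each).

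A short list of 4 neuronal genes had 3 on the array, with means over all lines of 3.93 to 5.07. Like the glial list, all 3 had a higher selected mean, beside 53.7% of all features. Their median difference was 0.18, and nSyb, a synaptic vesicle protein gene, differed by 0.34. Of the 3, 1 was higher at an unadjusted p under 0.05, beside 5.55% of all features, and 0 passed over all features in limma. Their summed intensity was 65.8 to 99.5 in selected lines and 67.0 to 76.7 in control lines.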
